A study of Mus musculus with 3 samples.

Results

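Cluster 2 was the largest of the 7 clusters that the study assigned to endothelial cells recovered from heart endothelium–stroma co-aggregates. Its members were taken as every cell whose deposited cluster number was 2, and they numbered 5396 of 9562 cells, or 56.4% (exact 95% Clopper-Pearson interval 55.4–57.4%). The adult heart cells came from GFP+ mice and were sorted for GFP and the endothelial proteins CD31 and VE-Cad, with cells bearing the blood proteins CD41 or CD45 or the stromal receptors PDGFRA or PDGFRB left out. They were mixed with *Mesp1*-derived PDGFRA+ stromal cells (PSCs), sorted for DsRed and PDGFRA and against PDGFRB, the endothelial and the blood proteins, from the aorta-gonad-mesonephros region of E11.5 *Mesp1*–DsRed embryos, and cultured with IL-3, SCF and Flt3L. After 24, 48, 72 or 96 h, GFP+CD31+VE-Cad+PDGFRA- cells were sorted again and pooled with freshly sorted adult heart endothelium, which makes 3 pools of the same composition (A, B and C). The methods describe pooling of several embryos and of several adult female hearts. The deposited table does not say which time point a cell came from, so a cell of cluster 2 may be fresh or cultured, and cells are described here by the 3 suffixes of their barcodes, which the labels do not tie to pool A, B or C.

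*Aplnr* encodes the apelin receptor, a G-protein-coupled receptor that is found in venous and angiogenic endothelium and binds the peptides made from *Apln* and *Apela*. Endothelial cells differ by vessel: arterial cells carry Notch ligands, connexins and ephrin-B2, venous cells carry the transcription factor *Nr2f2* (COUP-TFII), which represses the arterial Notch programme, and heart capillary cells take up fatty acids through *Cd36*, *Fabp4* and *Gpihbp1*. Haemogenic endothelium, which the co-aggregates were made to produce, is arterial in character and turns on *Runx1* before it releases blood cells.

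All values below rest on raw counts of unique molecular identifiers (UMIs, each standing for 1 captured mRNA molecule). A level is the sum of a gene's UMIs over a group of cells per 10,000 UMIs of that group, and a ratio is the log2 of 2 such levels. The whole table was treated as 1 sample, and the clusters had been made from the same counts, so differences between clusters are described and not tested, and intervals cover counting error only. Cluster 2 held 140516887 UMIs. Its cells had a median of 22493 UMIs (quartiles 12674 and 34641) and 5002.5 genes, against 14061 UMIs in cluster 0 and 7875 in cluster 1, the other clusters with high levels of vascular genes. Cluster 2 made up 52.7% of the cells with suffix 1 (1849 cells), 60.2% with suffix 2 (2382) and 55.6% with suffix 3 (1165), with median depths of 24013, 14232.5 and 40130 UMIs. Of its cells, 19 had fewer than the 5,000 UMIs that the methods give as the minimum. Over all cells, 13 barcodes occurred under more than 1 suffix, and 15 cells of cluster 2 carried such a barcode.

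Sex-linked transcripts were split among the cells of cluster 2. Of its 3018 cells with at least 20000 UMIs, 48.5% had UMIs of the Y-linked genes *Ddx3y*, *Uty*, *Kdm5d* or *Eif2s3y* and none of *Xist*, the RNA that coats the inactive X chromosome, and 37.5% had *Xist* and no Y-linked UMI. The Y-linked share was 49.3%, 46.6% and 49.1% in suffixes 1, 2 and 3. Both kinds were seen in 10% of these cells and neither in 3.88%. The methods name adult female hearts and do not give the sex of the embryos, and where the cells with Y-linked UMIs came from was not tested. Some genes described below were close in level in both groups and others were not. *Mest* stood at 21.5 UMIs per 10,000 in the Y-linked group and 22.3 in the *Xist* group, *Igf2* at 9.85 and 9.83, and *Aplnr* at 3.9 and 3.72. *Prox1* was at 0.201 and 0.135 (log2 ratio 0.58), *Lyve1* at 0.188 and 0.127 (0.57), *Cxcl2* at 0.0218 and 0.0967 (−2.15), *Gja4* at 0.684 and 0.829 (−0.28), and the globin gene *Hba-a1* at 0.102 and 0.0109 (3.23). At 5,000 UMIs per cell, 11 of 5377 cells of cluster 2 held at least 3 *Hba-a1* UMIs and 5 held at least 10. For *Cxcl2* these counts were 13 and 4 cells, so the levels of both genes rested on few cells.

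The label of the cluster was checked against its 5 marker genes. *Aplnr* (ENSMUSG00000044338, GRCm38 chromosome 2, 85136225–85139923, plus strand) had 53948 UMIs in cluster 2, a level of 3.84 per 10,000 (exact Poisson interval 3.81–3.87). By suffix the level was 3.72, 3.79 and 4.00, against 0.347, 0.465 and 0.32 in cluster 0 and 1.39, 1.51 and 1.92 in cluster 1. Every suffix of cluster 2 therefore lay above every suffix of both other clusters, and clusters 3 to 6 lay between 0.188 and 0.349. A positive cell was one above 0.5 counts per 10,000, the threshold of the study. *Aplnr* was positive in 91.2% of the cells of cluster 2, in 14.4% of cluster 0 and in 37.3% of cluster 1. After each cell was thinned to 5,000 randomly drawn UMIs the shares with an *Aplnr* UMI were 77.6%, 9.56% and 30.2%. In cluster 5, which carries macrophage and neutrophil genes and has a median of 36065.5 UMIs, the share was 12.8%, above that of cluster 0, so the share in cluster 0 is not read as expression. The levels were 0.373 in cluster 0 and 0.218 in cluster 5, and the part of free RNA in them was not tested.

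**Figure D1:**
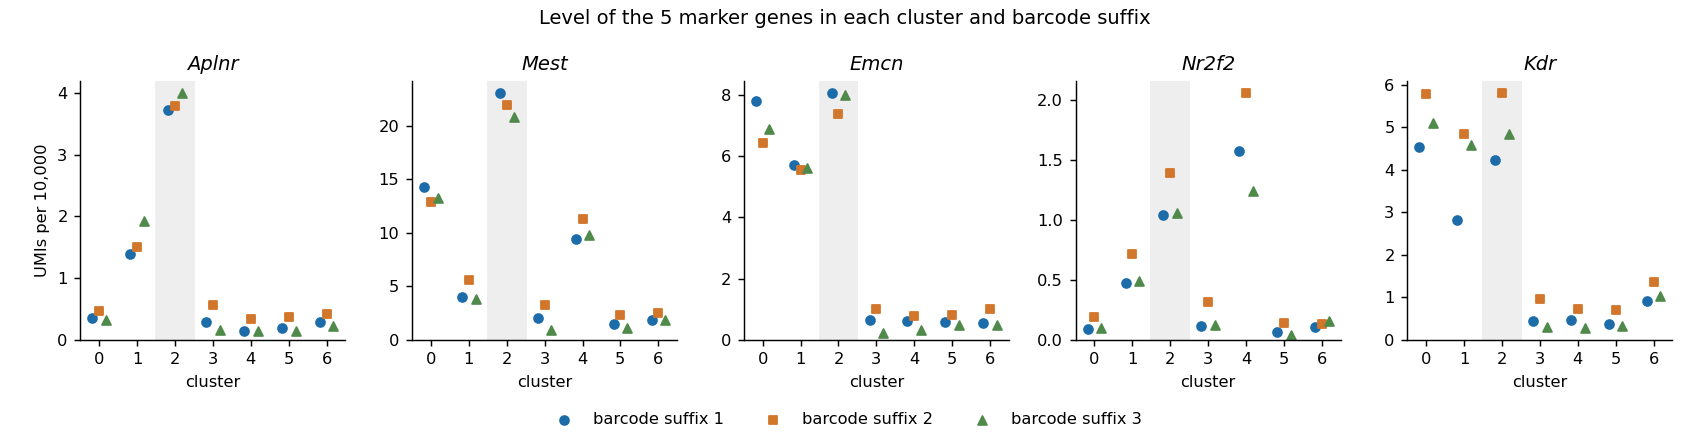
Level of the 5 marker genes (UMIs per 10,000, linear axes of different range) in each of the 7 clusters, with 1 point for each barcode suffix and cluster 2 shaded. *Aplnr* lies between 3.72 and 4.00 in cluster 2 and at or below 1.92 in the other clusters, whereas *Nr2f2* is also high in cluster 4 and *Emcn* and *Kdr* are shared with clusters 0 and 1.

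The other markers separated cluster 2 to different degrees. *Nr2f2* (chromosome 7, 70351944–70366735, minus strand) was at 1.04, 1.39 and 1.06 in the 3 suffixes of cluster 2, and at 0.0901, 0.191 and 0.095 in those of cluster 0. Its level in cluster 4, 1.57, was higher than the 1.16 of cluster 2. *Mest* (chromosome 6, 30723547–30748465, plus strand), an imprinted gene expressed from the paternal copy in the embryo, was at 23.1, 22.0 and 20.8, against 13.5 over cluster 0 and 4.3 over cluster 1. *Emcn*, the sialoglycoprotein endomucin of capillaries and veins, and *Kdr*, the main VEGF receptor, differed little from cluster 0: *Emcn* stood at 7.81 and 7.07 and *Kdr* at 4.94 and 5.11. At 5,000 UMIs, 76.7% of the cells of cluster 2 held UMIs of at least 4 of the 5 markers, compared with 9.7% in cluster 0, 22.3% in cluster 1 and 4.69–12.6% in clusters 3 to 6. Against the 6 other clusters together, the genes highest in cluster 2 after *Aplnr* were *Dok4*, an adaptor of receptor tyrosine kinases (log2 ratio 2.97), *Tmem255a* (2.84), *Pcdh17*, a protocadherin (2.83), *Hapln1*, which links hyaluronan to proteoglycans (2.83), *Bok*, a BCL2 family member (2.77), and *Gap43*, a growth cone protein (2.61).

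The ligands of the receptor were at low levels in the cells that carried it. *Apln* was at 0.324, 0.331 and 0.334 in the suffixes of cluster 2, a log2 ratio of 3.57 over cluster 0 (interval 3.09–4.09) and of −0.68 over cluster 1. The ligand was thus higher than in cluster 0 and lower than in cluster 1, whereas the receptor was higher than in both. At 5,000 UMIs, 13.7% of the cells of cluster 2 had an *Apln* UMI, compared with 1.98% in cluster 5. *Apela* had 45 UMIs in the whole of cluster 2, a level of 0.0032, and no UMI in cluster 0.

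Genes of arteries were lower in cluster 2 than in cluster 0. Of the 8676 genes with at least 0.1 UMIs per 10,000 in the higher of these clusters, 240 (2.77%) were at least 2-fold higher in cluster 2 with the same direction in every suffix, and 794 (9.15%) were at least 2-fold lower; the median log2 ratio over the 8676 genes was −0.09. All 14 genes of the arterial list were among the lower ones, with a median of −2.99. Among them, *Gja5*, *Bmx*, *Hey2*, *Cxcr4* and *Fbln5* reached the 0.1 minimum only in cluster 0, so they could only count as lower. *Gja5*, which encodes the arterial connexin 40, was at 0.0607, 0.0724 and 0.0482 in cluster 2 and at 5.4, 5.09 and 4.77 in cluster 0; the log2 ratio was −6.41, with an interval from −6.51 to −6.3. *Hey1*, a transcriptional target of Notch, was at 0.36, 0.362 and 0.293 against 2.58, 2.15 and 2.45. *Bmx*, an arterial tyrosine kinase, and *Hey2* had ratios of −6.78 and −5.81, and *Gja4*, the connexin 37 gene, one of −3.94. The smallest difference on the list was that of *Sox17*, an arterial transcription factor that also acts in haemogenic endothelium, which stood at 1.23 in cluster 2 and 3.44 in cluster 0 (−1.48). *Sox17* was therefore lower by less than 4-fold, and it was the only one of the 14 for which this was so.

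Genes of the Notch pathway followed the arterial list, with which they share *Dll4*, *Jag1*, *Hey1* and *Hey2*. Of its 9 members with enough UMIs, 8 were lower than in cluster 0 (median −2.00), beside 9.15% of all genes compared. The receptors *Notch1* and *Notch4* had ratios of −1.18 and −1.48, and the ligands *Dll4*, *Jag1* and *Jag2* of −2.32, −2.62 and −2.00. The member outside the count was *Hes1*, a target shared with other pathways, at 0.44 and 0.364. In the BMP and TGF-β list 5 of 10 were lower and 1 was higher, beside 9.15% and 2.77% of all genes. Among the lower ones were *Smad6* (−3.84) and *Smad7* (−2.43), the inhibitors that BMP and TGF-β signals induce, and *Id1* (−1.53). The higher one was *Bmp4*, at 0.41 and 0.192 (1.09). Of the basement membrane list, beside the same shares of all genes, 4 of 12 were lower, with *Fn1* (fibronectin) at 1.23 against 10.3 and *Col18a1* at 3.83 against 11.6, and 1 was higher (*Col15a1*, 1.04).

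The VEGF and angiopoietin receptors split between the clusters. *Nrp2*, the neuropilin of veins and lymphatics, was at 1.51, 1.98 and 1.63 in cluster 2 and at 0.222 over cluster 0 (2.94), whereas *Nrp1*, the neuropilin of arteries, was at 2.85 and 12.2 (−2.09). *Tek* and *Tie1*, the receptors of the angiopoietin system, were also lower (−1.06 and −1.29). *Flt4*, the receptor for VEGF-C, was at 0.802 and 0.433, a ratio of 0.89 that did not reach 2-fold. On the list for tip cells, which lead vascular sprouts, the potassium channel subunit *Kcne3* (4.50), *Apln* and *Adm*, the gene of adrenomedullin (1.71), were higher in cluster 2. Of the 10 members with enough UMIs, *Dll4*, *Cxcr4* and *Plaur* were lower and 3 were higher, beside 9.15% and 2.77% of all genes compared. Those 3 reached the 0.1 minimum only in cluster 2, so they could only count as higher. *Cxcr4* reached it only in cluster 0, so it could only count as lower. Against cluster 1, 0 of 11 were higher and 8 were lower (median −1.99), beside 10.4% and 20.0% of all genes. In that comparison *Angpt2* and *Cxcr4* reached the minimum only in cluster 1, so they could only count as lower. The summed level of this list was 3.83 in cluster 2, below the 5.87 and 13.7 of clusters 0 and 1. Among the genes with at least 1 UMI per 10,000, those highest over cluster 0 after *Aplnr*, *Nr2f2* and *Nrp2* were *Clec1b*, a C-type lectin that binds podoplanin (2.69), the kinase *Sgk1* (2.30), *Ccnd1* or cyclin D1 (2.23) and *Odc1*, the first enzyme of polyamine synthesis (2.14). The lowest, beside *Gja5*, were *Tmem100*, a BMP target of arterial endothelium (−6.44), the protease *Htra1* (−6.06) and the smooth muscle actin gene *Acta2* (−5.89).

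**Figure D2:**
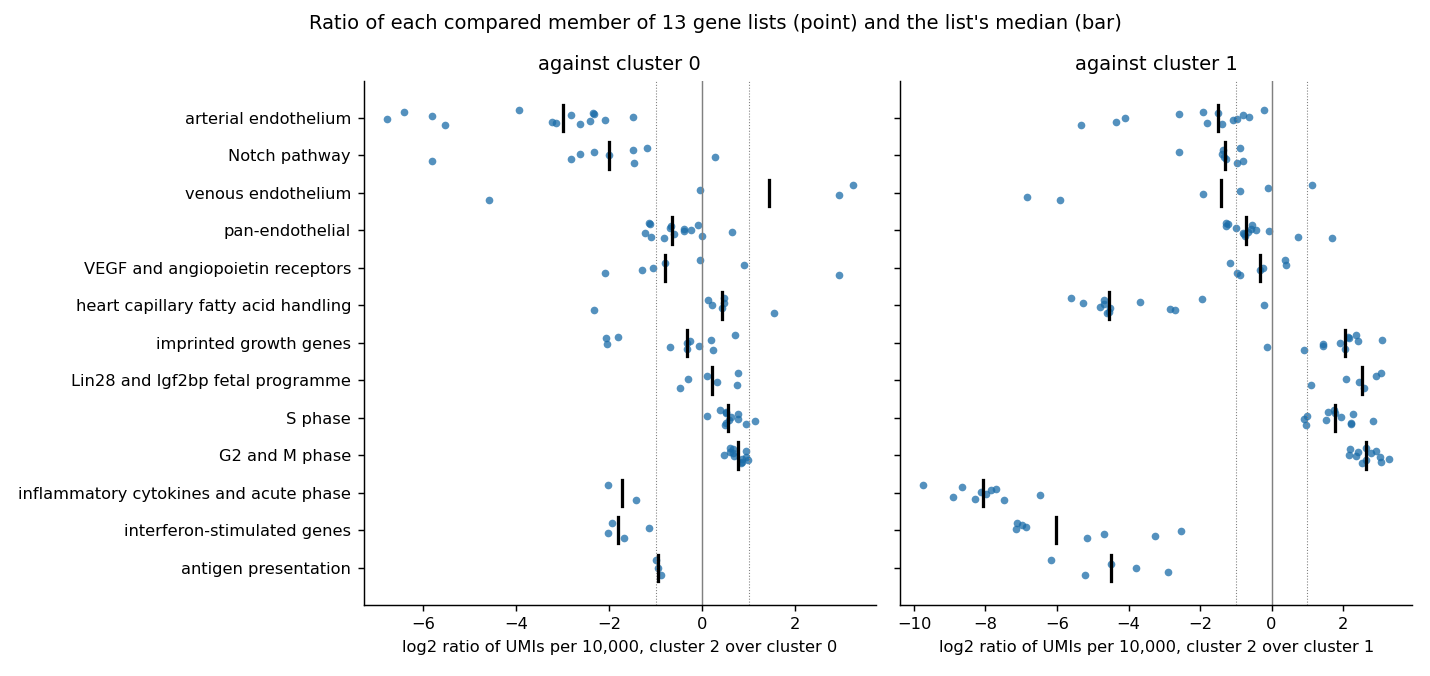
For 13 gene lists, log2 ratio in cluster 2 over cluster 0 (left) and over cluster 1 (right) of each member with enough UMIs (points), with the list median as a bar and 2-fold differences as dotted lines on axes of different range. The arterial list has a median of −2.99 over cluster 0, and the heart capillary and inflammatory lists have medians of −4.54 and −8.06 over cluster 1.

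Genes of heart capillaries and of inflammation were lower in cluster 2 than in cluster 1. Of 9191 genes, 1839 (20.0%) were at least 2-fold lower in cluster 2 and 952 (10.4%) at least 2-fold higher, around a median of −0.10. The list for the handling of fatty acids in heart capillaries had 12 of 13 genes lower, with a median of −4.54. Among them, *Aqp7*, *Car4*, *Meox2*, *Pparg* and *Timp4* reached the 0.1 minimum only in cluster 1, so they could only count as lower. *Fabp4*, a fatty acid binding protein, was at 1.44, 1.63 and 0.951 in cluster 2 and at 60.8, 55.2 and 78.0 in cluster 1, a ratio of −5.62 (−5.64 to −5.59). *Gpihbp1*, which anchors lipoprotein lipase to the capillary wall, was at 0.262 and 10.1, and the fatty acid transporter *Cd36* at 0.158 and 4.04. *Tcf15*, a transcription factor that acts with *Meox2* in fatty acid uptake, was the exception, at 1.16 and 1.34.

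All 10 cytokine and acute-phase genes were lower than in cluster 1 (median −8.06), beside 20.0% of all genes compared, as were the 8 interferon-stimulated genes (−6.03) and the 5 genes of antigen presentation with enough UMIs (−4.48). The 10 cytokine and acute-phase genes summed to 0.209 in cluster 2, and each reached the 0.1 minimum only in cluster 1. They could therefore only count as lower, as could some genes of the other lists, such as *Ifit1*. These counts are not read as a result about the lists. *Il1b* was at 0.0133 in cluster 2 and 5.44 in cluster 1, *Cxcl2* at 0.0721 and 18.3, and *H2-K1*, a class I histocompatibility gene, at 0.227 and 16.4. Of the immediate early genes 6 of 7 were lower too (median −2.57), with *Egr1* at 0.129 and 3.1. Cluster 1 also held genes of other cells. The 6 macrophage genes summed to 16.0 UMIs per 10,000 in cluster 1 and 0.0958 in cluster 2, with *Lyz2* at 12.0 and 0.0303, and the 5 red cell genes to 5.48 and 0.279, the latter at 0.0792, 0.123 and 0.607 in suffixes 1, 2 and 3, with suffix 3 the highest. The part of such transcripts in the values of cluster 1 was not tested. The macrophage sum in cluster 2 lay between 0.0474 and 0.185 by suffix. In cluster 2 the cardiomyocyte, fibroblast, pericyte, neutrophil, megakaryocyte, epithelial and germ cell lists summed to between 0.027 and 0.176 per 10,000.

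Higher in cluster 2 than in cluster 1 were growth genes of the embryo and fetus. All 6 genes of the Lin28 and Igf2bp list with enough UMIs were higher (median 2.52), beside 10.4% of all genes compared. *Igf2bp1*, an mRNA-binding protein of fetal tissue, was at 1.9, 2.57 and 2.21 in cluster 2 and at 0.223, 0.399 and 0.312 in cluster 1 (2.93). *Hmga2*, a chromatin protein of growing embryonic cells that Let-7 microRNAs repress, was at 3.43 and 0.571, and *Lin28b*, which blocks Let-7, at 0.238 and 0.0285. Of the imprinted growth genes 9 of 11 were higher (median 2.06), beside the same 10.4%, including *Meg3* (3.1), *Peg3* (2.41), *Mest* (2.35), *H19* (2.17) and *Igf2* (2.15). *Igf2r* was at 0.828 and 0.914, and *Gnas*, at 25.7 and 13.8, did not reach 2-fold.

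Cluster 0 shared this programme and exceeded cluster 2 in some of it. None of the 6 Lin28 and Igf2bp genes differed from cluster 0 by 2-fold in every suffix (median 0.21), and *Igf2bp1* was at 2.22 in cluster 2 and 2.07 in cluster 0. *H19* was at 6.68, 9.59 and 7.63 in cluster 2 and at 28.6, 38.4 and 32.8 in cluster 0 (−2.06). *Igf2* (−1.82) and *Cdkn1c*, a cell cycle inhibitor and also imprinted (−2.05), were also lower. *Mest* was higher than in cluster 0 in each suffix, by 0.70, 0.77 and 0.65, and so below the 2-fold limit.

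Genes of dividing cells were highest in cluster 2 of the 3 clusters. All 12 genes of the G2 and M phase list were higher than in cluster 1 (median 2.64), as were 10 of the 12 S phase genes (median 1.76), beside 10.4% of all genes compared. *Ube2c*, a ubiquitin-conjugating enzyme of mitotic exit, was at 6.22, 5.38 and 4.93 in cluster 2, with ratios of 3.07 over cluster 1 and 0.85 over cluster 0. In cells thinned to 5,000 UMIs the median was 11 UMIs of G2 and M genes in cluster 2, 2 in cluster 0 and 0 in cluster 1. Only 4.37% of the cells of cluster 2 had none, compared with 24.7% and 53%. Over cluster 0 the G2 and M median ratio was 0.76, with no gene past 2-fold in every suffix, and of the S phase genes *Rrm2*, a subunit of ribonucleotide reductase, was the only one past it (1.13).

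Some of the genes shared by all endothelium were lower in cluster 2 than in clusters 0 and 1. *Cdh5* (VE-cadherin) was at 4.08, 4.73 and 4.11 in cluster 2, 9.3 in cluster 0 and 9.93 in cluster 1, and *Pecam1* (CD31) at 3.3, 7.27 and 7.96. Of the 14 genes of this list, 4 were at least 2-fold lower than in cluster 0 (*Pecam1*, *Cdh5*, *Sox7* and *Ramp2*) and 4 than in cluster 1 (beside 9.15% and 20.0% of all genes compared), and the medians were −0.64 and −0.71. *Plvap*, the diaphragm protein of fenestrated capillaries, was at 7.36 in cluster 2 and 2.26 in cluster 1 (1.70). Both surface proteins used in the sort were thus present at lower transcript levels. *Runx1* had 264 UMIs in cluster 2, a level of 0.0188, against 0.321 in cluster 0, 0.156 in cluster 1 and 1.3 and 1.67 in clusters 5 and 6. At 5,000 UMIs, 1.28% of the cells had a *Runx1* UMI. *Gfi1*, a repressor that Runx1 induces in haemogenic cells, was at 0.00228 and 0.158 in clusters 2 and 0. Of the haemogenic and blood factors, 5 of 8 were lower than in cluster 0 (median −1.34), beside 9.15% of all genes compared. *Runx1* and *Gfi1* reached the minimum level of this comparison only in cluster 0, so they could only count as lower. The count is therefore not read as a result about the list. *Lmo2*, a partner of Tal1 in blood and endothelium, was at 3.48, 3.25 and 1.35 in clusters 2, 0 and 1.

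Venous identity was uneven within the list for it. Beside *Nr2f2* and *Nrp2*, *Ephb4*, the receptor of ephrin-B2, was at 0.884 in cluster 2, 0.915 in cluster 0 and 0.947 in cluster 1. *Vwf*, the von Willebrand factor of large vessels and veins, was at 0.196, 0.251 and 0.205, far below the 5.21 of cluster 0. *Ackr1* and *Selp*, which mark postcapillary venules, were at 0.0197 and 0.0107. Thus 2 of 4 members with enough UMIs were higher than in cluster 0 and 1 was lower, beside 2.77% and 9.15% of all genes compared. Against cluster 1, 1 of 6 was higher and 3 were lower (median −1.40), beside 10.4% and 20.0% of all genes. The summed level of the list was 4.01 in cluster 2, below the 6.52 and 7.88 of clusters 0 and 1.

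Lymphatic and sinusoidal genes were mostly low in level, apart from *Flt4*, *Mmrn1* and the sinusoidal gene *Stab1*. *Stab1* was at 1.1 and 1.07 in the Y-linked and *Xist* groups of cells with at least 20000 UMIs. On the lymphatic list 3 of 4 members with enough UMIs were higher than in cluster 0, and on the sinusoidal list 1 of 2, beside 2.77% of all genes compared. *Prox1* and *Stab2*, at 0.031 and 0.0119 in cluster 0, reached the 0.1 minimum only in cluster 2, as did *Lyve1*, so they could only count as higher. These counts are therefore not read as a result about the lists. Against cluster 1, 1 of 5 lymphatic genes was higher and 1 lower (median 0.40), and 1 of 4 sinusoidal genes was higher and 1 lower (median −0.35), beside 10.4% and 20.0% of all genes. The summed sinusoidal level of cluster 2, 1.36, lay above the 1.13 of cluster 0 and below the 1.69 and 2.66 of clusters 1 and 5. *Prox1*, the transcription factor that sets lymphatic fate, was at 0.16, 0.215 and 0.165 in cluster 2 and 0.031 in cluster 0 (2.53, interval 2.07–3.02). *Mmrn1*, a multimerin of lymphatic endothelium and platelets, was at 0.743 in cluster 2, 0.191 in cluster 0 and 0.105 in cluster 1. *Stab2*, a scavenger receptor of sinusoids, was at 0.125, 0.0119 and 0.00713, the last of these resting on few UMIs. *Pdpn*, *Ccl21a* and *Reln* were all at or below 0.0117 in cluster 2.

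Levels in cluster 2 differed little by barcode suffix. Of 1820 genes with at least 1 UMI per 10,000, the highest suffix was at least 2-fold above the lowest in 3 and at least 4-fold in none. These were *Gm42418* (16.3, 44.5 and 37.1) and *AY036118*, both of which overlap ribosomal RNA sequence, and the linker histone gene *Hist1h1e* (0.807, 1.61 and 1.73). Suffix 1 was the lowest for each of them. *Gm42418* was also lowest in suffix 1 in clusters 0 and 1. Next, below 2-fold, came *Gm10076* (1.86-fold) and *Hist1h1b* (1.84-fold). *Mki67*, a nuclear protein of dividing cells, followed at 1.85, 3.23 and 2.41 (1.75-fold), and then *Fabp4* (1.71-fold).

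The spread between cells of cluster 2 was smaller for *Mest* and *Aplnr* than for *Fabp4* and *Gja4*. At 5,000 UMIs a *Mest* UMI was found in 99.9% of 5377 cells, and the variance of its UMIs over cells, divided by the mean, was 1.97 in the suffix where it was lowest; a value of 1 is what counting alone gives for cells of equal level. For *Aplnr* it was 1.58. It was 9.92 for *Fabp4*, for which 5% of the cells held 70.5% of the UMIs, and 4.38 for *Gja4*, with 60.6%. At least 3 UMIs of *Gja4* were found in 396 cells (7.36%), of *Fabp4* in 434 (8.07%) and of *Prox1* in 56 (1.04%). In cluster 5 the shares with at least 3 UMIs were 1.15%, 6.25% and 0 of 1568 cells, which allows up to 0.235%. For *Gja4* it was 6.04% (4.44–8%) in cluster 1, close to that of cluster 2, and 3.35% in cluster 3. The share for *Fabp4* was between 5.26% and 15.5% in every cluster but cluster 1, so cluster 2 did not stand apart in it.

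**Figure D3:**
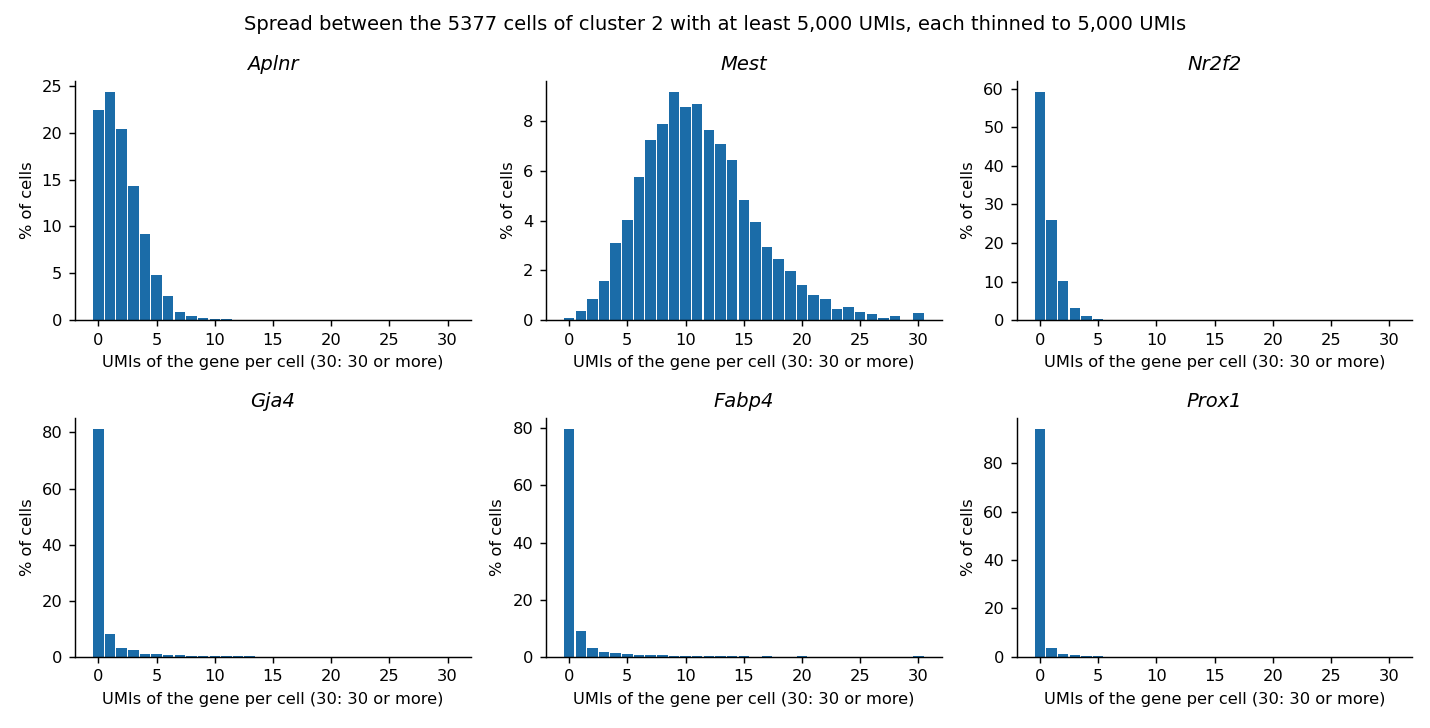
Percentage of the 5377 cells of cluster 2 with each number of UMIs of 6 genes after thinning to 5,000 UMIs per cell. *Mest* forms 1 broad peak, whereas *Gja4*, *Fabp4* and *Prox1* have most cells at 0 and a long tail of 434 cells or fewer with at least 3 UMIs.

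The cells of cluster 2 that held *Gja4* also held other arterial genes. They were compared in 3 ranges of *Gja4* UMIs at 5,000 UMIs: 4367 cells with none, 614 with 1 or 2 and 396 with at least 3. These limits were set with the values in view, and the ranges are not cell types. *Hey1* was at 0.135, 0.906 and 2.27 UMIs per 10,000 in these ranges, and *Gja5* at 0.0127, 0.171 and 0.543. In the cells with at least 3 *Gja4* UMIs, *Hey1* was at 2.39, 2.3 and 2.12 in the 3 suffixes, close to its 2.40 over cluster 0, whereas *Gja5* was at 0.496, 0.539 and 0.588, far below the 5.09 there. *Dll4* was at 0.236, 0.708 and 1.25, *Unc5b*, a netrin receptor of arterial and tip cells, at 0.205, 0.854 and 1.63, and *Cxcr4*, the receptor for CXCL12, at 0.0224, 0.135 and 0.358.

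Genes that were high in cluster 2 had the opposite order over the same ranges. *Aplnr* was at 4.13, 2.83 and 1.39, *Nr2f2* at 1.25, 0.833 and 0.396, and *Nrp2* at 1.85, 1.08 and 0.497. *Aplnr* in the cells with at least 3 *Gja4* UMIs was at 1.35, 1.65 and 1.21 by suffix, below every suffix of the cells with none (4.01, 4.04 and 4.31) and above every suffix of cluster 0. *Odc1* was at 4.63, 2.49 and 0.879. *Cdkn1c* was at 2.49, 4.80 and 10.7 and the glucose transporter gene *Slc2a1* at 2.64, 4.67 and 8.95, both higher in the cells with *Gja4*. *Mki67* was at 2.56, 2.25 and 1.65. *Mest* (21.4, 24.2 and 25.9) and *Emcn* (7.86, 7.24 and 7.95) differed by far less over the ranges. The cells with *Gja4* were shallower, with median depths of 23683, 16658 and 17932 UMIs. The share of cells of at least 20000 UMIs with both *Xist* and Y-linked UMIs was 9.96% in those without *Gja4* and 9.94% in those with at least 3 UMIs.

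**Figure D4:**
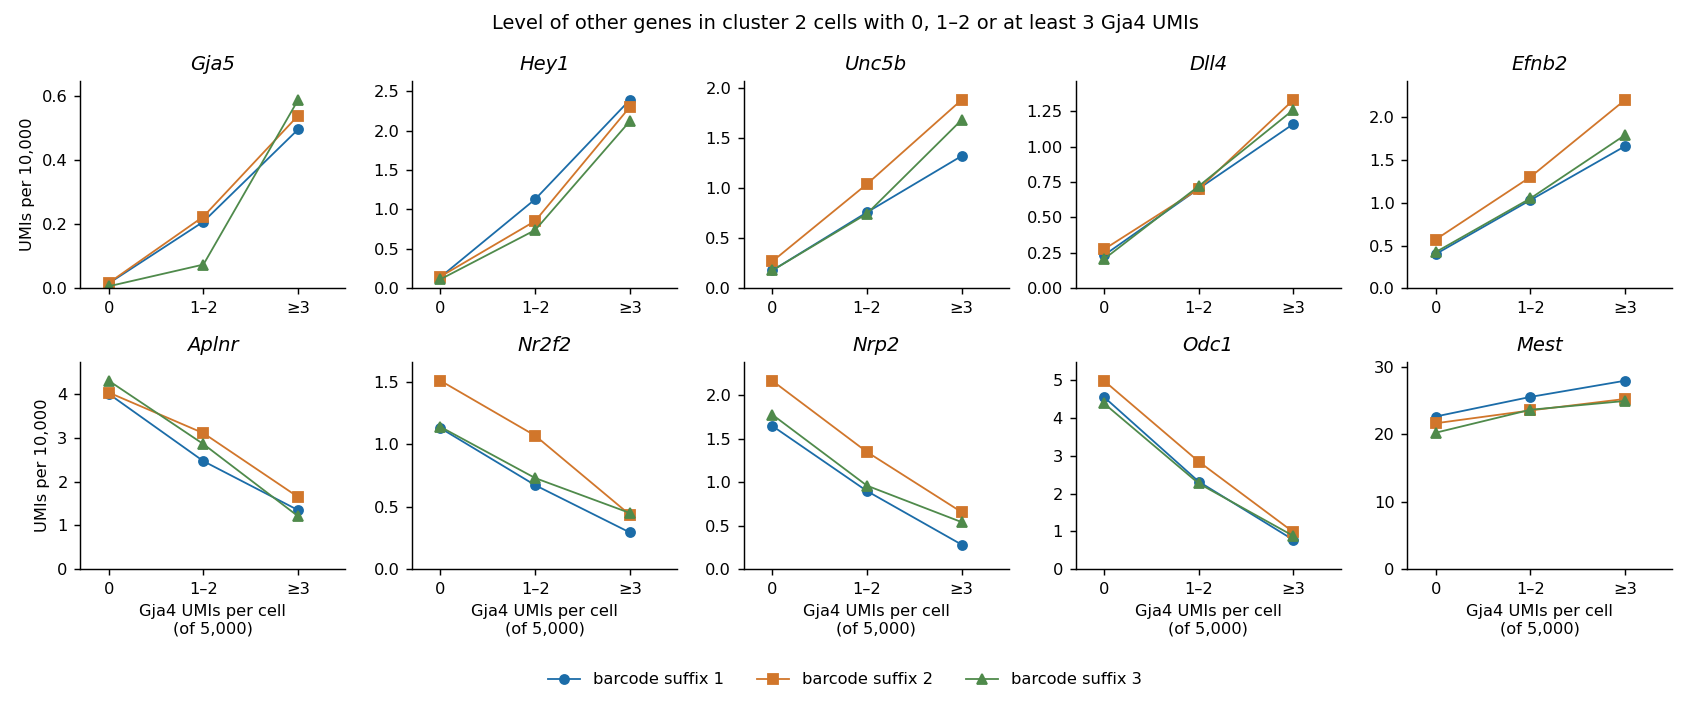
Levels (UMIs per 10,000, linear axes of different range) of 5 arterial genes (top) and 5 genes high in cluster 2 (bottom) in its cells with 0, 1 to 2 or at least 3 *Gja4* UMIs at 5,000 UMIs per cell, with 1 point for each barcode suffix. *Hey1* runs from 0.135 to 2.27 over the ranges and *Aplnr* from 4.13 to 1.39, in the same direction in each suffix.

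For *Fabp4* the same comparison gave a like order in capillary genes, whereas *Mest*, *Aplnr* and *Hmga2* differed little. *Cd36* was at 0.0494, 0.213 and 1.55 in cells with none, 1 or 2 and at least 3 *Fabp4* UMIs (4286, 657 and 434 cells), *Gpihbp1* at 0.147, 0.303 and 1.77, and *H2-K1* at 0.0996, 0.418 and 1.67. *Mest* was at 22.0, 22.1 and 20.6, *Aplnr* at 3.85, 3.82 and 3.65, and *Hmga2* at 3.47, 3.27 and 3.12. Both *Xist* and Y-linked UMIs were found in 61 of 160 cells with at least 3 *Fabp4* UMIs and at least 20000 UMIs in all, or 38.1% (30.6–46.1%), and in 7.94% (6.93–9.05%) of 2606 such cells without *Fabp4*. Over all cells of these ranges the median depths were 14640 and 24036 UMIs. The part of droplets with more than 1 cell in these values was not tested.

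A wider view was taken by ranking the cells of cluster 2 by their summed level of the 13 heart capillary genes and cutting them into 5 bins of 1079 or 1080 cells, which are ranges of a score and not types. The median score was 0.998, 2.15, 3.49, 5.8 and 13.5 UMIs per 10,000 from the first to the last bin. *Mest* was at 22.4 in the lowest bin and 21.4 in the highest (−0.06), *Aplnr* at 3.86 and 3.62 (−0.09), and *Igf2bp1* at 2.36 and 2.06 (−0.20). Some other fetal genes were lower in the highest bin, *Lin28a* at 0.106 and 0.0448 (−1.24, interval −1.58 to −0.92), *Lin28b* at 0.295 and 0.191 (−0.63) and *Meg3* at 3.05 and 1.98 (−0.62). The summed Lin28 and Igf2bp list was at 8.85 and 7.67. The imprinted growth list, which includes *Meg3*, went the other way, at 77 and 86.2. With *Fabp5*, the capillary list's most abundant gene in cluster 2, left out of the score, the *Aplnr* ratio was 0.20, so its direction turned. The median depth of the cells was 23328 UMIs in the lowest bin and 17259 in the highest. Marker lists of other cells were also higher in the highest bin, the pericyte list at 0.0153 and 0.0837, the fibroblast list at 0.106 and 0.301 and the macrophage list at 0.0575 and 0.155, and their part in these values was not tested. *H2-K1* was at 0.0732 and 0.836 (3.51, interval 3.31–3.73), with 0.165 in the fourth bin, so most of the difference lay between the last pair of bins. *Cdh2*, which encodes N-cadherin, and *Hapln1* were at 1.86 and 5.21 in the lowest bin and at 0.667 and 2.71 in the highest, and the order was the same in each suffix. The *Cdh2* ratio was −1.48, and −0.77 without *Fabp5*. *Bok* was at 2.22 and 1.2 (−0.88) and *Clec1b* at 2.83 and 1.5 (−0.91), so genes of cluster 2 did not all stay level across the bins. Without *Fabp5* in the score the *Bok* and *Clec1b* ratios were −0.43 and −0.58, and that of *Meg3* was −0.35. Cells with both *Xist* and Y-linked UMIs made up 5.49% of the deep cells in the lowest bin and 20.1% in the highest.

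**Figure D5:**
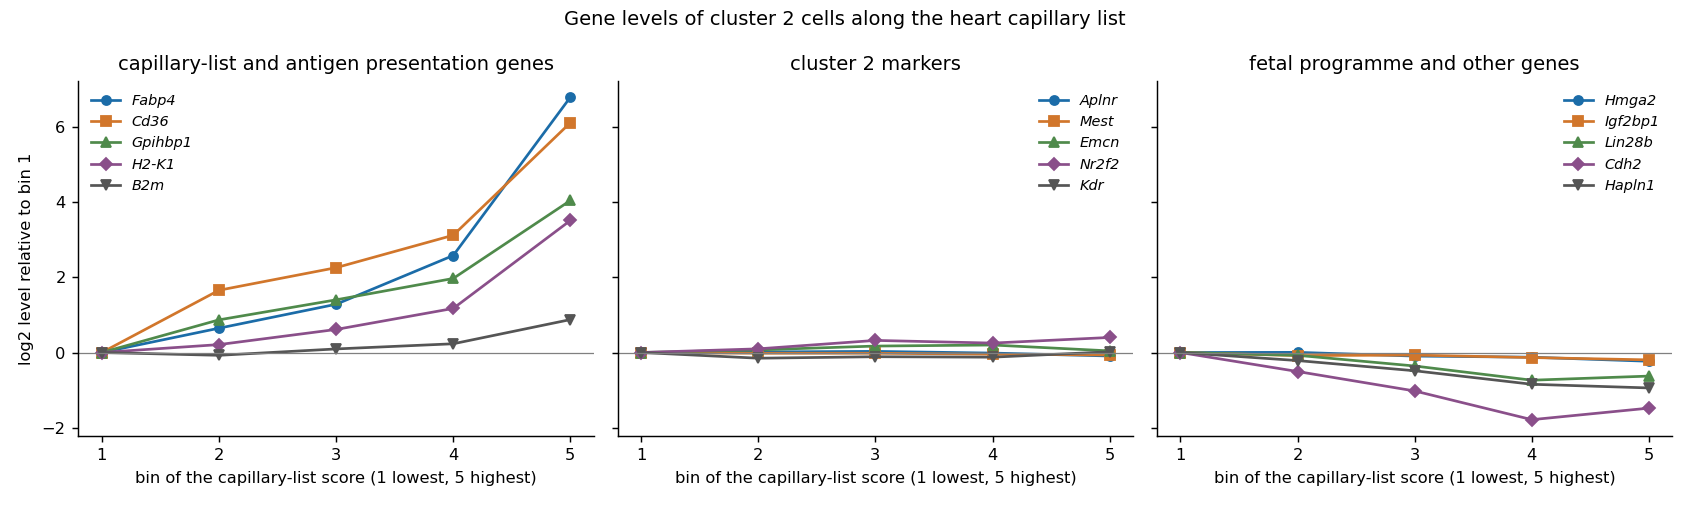
Log2 level of 15 genes, relative to the lowest bin, in 5 bins of cluster 2 cells ordered by the summed level of the heart capillary list. *Fabp4*, *Cd36* and *Gpihbp1* belong to the score that orders the bins; outside it, *H2-K1* reaches 3.51 in the highest bin, whereas *Mest* and *Aplnr* lie at −0.06 and −0.09 there.

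The cells with *Prox1* differed from the rest of cluster 2 in other genes. In the 56 cells with at least 3 *Prox1* UMIs at 5,000 UMIs, of which 18, 27 and 11 had suffix 1, 2 and 3, *Lyve1*, the hyaluronan receptor of lymphatic endothelium, was at 1.9 UMIs per 10,000 (1.66–2.16), compared with 0.162 in the 5062 cells without a *Prox1* UMI. *Nrp2* was at 6.11 and 1.57, *Stab1*, a scavenger receptor, at 4.09 and 1.08, and *Reln*, an extracellular glycoprotein of lymphatic vessels, at 0.307 and 0.00278. *Nrp2* and *Stab1* were higher in the cells with *Prox1* in each of the suffixes. *Pdpn*, the membrane glycoprotein that marks mature lymphatics, was at 0.113, a level that rests on 14 UMIs, with none in suffix 3. *Nr2f2* was at 2.5 and 1.11. *Dok4* was at 0.0646 (8 UMIs) and 1.35, *Apln* at 0.0404 (5 UMIs) and 0.338, *Aplnr* at 2.04 and 3.88 and *Emcn* at 4.46 and 7.9, each lower in the cells with *Prox1*. *Cdh5* differed little, at 3.84 and 4.3. Both *Xist* and Y-linked UMIs were found in 2 of 28 of these cells of at least 20000 UMIs, or 7.14% (0.877–23.5%).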

How the data were processed

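RNA of sorted single cells from 3 pools was measured with the 10x Genomics 3′ assay (v3 chemistry). Per the study's methods, the authors ran Cell Ranger 3.1.0 on genome build mm10, kept singlets of at least 5,000 UMIs, and clustered with the Leiden algorithm in scanpy on a log scale; the submitters' processing notes also name Seurat 3.1.5. The deposited table of raw counts (27998 Ensembl identifiers, 9562 cells) was used, together with the deposited cluster number of each cell (other column). The deposited normalized table was not used here, and 0 columns of other samples were present. Because the authors aggregated runs of different depth, a level is a share of UMIs and not an absolute amount.

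Gene names came from GENCODE M21 (27645 identifiers matched), and equal names were summed. Python 3.11.15, numpy 2.4.6, scipy 1.17.1, pandas 2.3.3 and matplotlib 3.10.9 were used. UMIs were summed per cluster and barcode suffix. Ratios carry exact conditional binomial intervals, levels exact Poisson intervals and shares exact Clopper-Pearson intervals, at 95%. A gene was counted as higher or lower if its level was at least 2-fold apart with the same direction in all 3 suffixes, among genes of at least 0.1 UMIs per 10,000 in the higher cluster. A gene that reached this minimum in only 1 of the clusters compared could, if counted, only be counted as higher there. Shares of cells were taken after thinning to 5,000 UMIs (random seed 1), which left out 19 cells of cluster 2. No doublet caller was run, as the methods state that singlets were kept. Named genes were the members of 38 gene lists, the top 10 genes by ratio, upwards and downwards, the 20 most variable genes, and the 10 that differed most by suffix, each with at least 1 UMI per 10,000 where ranked by ratio. The ranges of *Gja4*, *Fabp4* and *Prox1* and the comparisons by sex-linked transcripts were added after values were seen. The cluster and the gene lists were chosen with earlier results of these data known. The counting was tested on simulated data.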

Additional observations from a re-analysis of the deposited data

How the results depend on the processing

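The counts of genes apart by 2-fold depended on the minimum level and, to a lesser degree, on the scaling. When the minimum was raised to 1 UMI per 10,000, 2017 genes were compared with cluster 0 and 2256 with cluster 1; 45 genes were higher and 164 lower than in cluster 0, and 254 and 454 than in cluster 1. With no minimum 19589 and 19722 genes were compared, and the counts were 1783 and 1993, and 3034 and 3284. The log2 ratio of *Aplnr* over cluster 0 was 3.77 after thinning to 5,000 UMIs per cell and 3.82 as a ratio of mean counts per 10,000 over cells, and over cluster 1 it was 1.49 after thinning. *Aplnr* was positive in 93.0% of cells at a threshold of 0, in 87.8% at 1 and in 77.6% after thinning. At 4-fold, 5 Notch genes were lower than in cluster 0 and 4 S phase genes higher than in cluster 1. The *Mest* ratio between bins was −0.03 without *Fabp5* in the score. Leaving out each barcode suffix in turn gave a share of cluster 2 of 53.8–58.6%, 241–265 genes higher and 784–828 lower than in cluster 0 with an *Aplnr* ratio of 3.23–3.53, 954–968 higher and 1748–1918 lower than in cluster 1 with a ratio of 1.16–1.39, and 90.8–91.5% of cells positive for *Aplnr*. Without mitochondrial and ribosomal protein genes in the totals, ratios over cluster 1 were shifted by 0.14. The 240 genes higher than in cluster 0 became 301 with these totals, 335 after thinning and 320 as ratios of mean counts per 10,000. The 952 genes higher than in cluster 1 became 1231, 1054 and 1037. Genes lower than in cluster 0 (794) became 792, 801 and 783, and those lower than in cluster 1 (1839) became 1710, 1819 and 1813. Among the results that answer a comparison, 55 alternative values stayed within their limit and 19 moved beyond it. The clusters were compared within each barcode suffix as values; no test, paired or unpaired, was run, since they had been made from the same counts. The matrix counts as 1 sample, so the spread between animals or pools was not measured.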

Other observations

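Erythroid transcripts were found in a few cells of cluster 2. At 5,000 UMIs per cell *Hba-a1*, an α-globin gene, was detected in 1.04% of the cells, with up to 56 UMIs in 1 cell, and its ratio of variance to mean was 32.2, 21.6 and 48.4 in suffixes 1, 2 and 3. Its level by suffix was 0.0175, 0.0485 and 0.111 UMIs per 10,000. *Mgp*, the matrix Gla protein gene, was detected in 1.9% of the cells with up to 62 UMIs, and *Cxcl2*, a neutrophil chemokine gene, in 1.15% with up to 41.

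Of 10 glycolytic genes with enough UMIs 3 were at least 2-fold higher than in cluster 0 (beside 2.77% of all genes compared), among them *Ldha*, lactate dehydrogenase, at 12.8 and 5.99 UMIs per 10,000, and *Pkm*, pyruvate kinase, at 13.3 and 6.55; the median log2 ratio was 0.60, beside −0.09 over all genes compared. Against cluster 1, 1 was higher and 3 were lower, beside 10.4% and 20.0% of all genes, with a median of −0.08.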
